A study of Mus musculus with 28 samples.

Results

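The liver and the kidney of mice that had received water only were compared, to describe how their transcripts differed before any treatment with nicotinamide mononucleotide (NMN), the NAD+ precursor that the study tested. The libraries were chosen by their labels alone: every library labelled as a control, with the organ and the schedule read from its title. They numbered 14 of the 28 in the series, 7 from liver and 7 from kidney. All mice were male, of strain C57BL/6 in the labels and C57BL6J in the study's methods, were 8 weeks old and were gavaged for 7 days. The 1340 group (4 liver and 4 kidney libraries) served as controls for mice given NMN at 1340 mg/kg/d in a single daily gavage, and the 2680 group (3 and 3) as controls for mice given 2680 mg/kg/d with gavage repeated within the day. The number of daily gavages and anything else that differed between the schedules cannot be told apart. No allele, transgene or other agent was named for any of these groups. Each library held polyA-selected RNA of a whole organ sample. The study's legends call the libraries of a group biological replicates. The labels do not say whether a liver and a kidney with the same number came from 1 mouse.

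The liver is built mostly of hepatocytes, which make the proteins of blood plasma, dispose of ammonia as urea, and make bile acids. The kidney filters plasma at the glomerulus and then takes back glucose, amino acids, phosphate and salt along a series of tubule segments, each with its own transporters. Both organs make glucose and are rich in mitochondria, and several pathways of the body run through both in turn. In bulk RNA of this kind, fewer cells of a type and less RNA per cell cannot be told apart.

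Between 12925839 and 20635269 gene counts were found in each library. Expression is given as CPM (counts per 1000000 of the TMM-scaled library), fold changes are log2 values of liver over kidney, so that positive values are higher in liver, and the number after ± is the standard error of the fit. A gene was called when edgeR's quasi-likelihood test gave an adjusted p under 0.01 together with a fold change over 2 or under 0.5. Counts in either organ let a gene enter the test. A gene that 1 organ hardly expresses could therefore only be called higher in the other, which bears on the shares given for all lists.

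Each library carried the defining transcripts of its labelled organ. Alb was between 86456 and 183132 CPM (median 118355) in the livers and between 7.46 and 71.7 CPM (median 51.03) in the kidneys, and Kap between 12394 and 18096 CPM (median 16525) in the kidneys and between 0.738 and 38.03 CPM (median 31.8) in the livers. The libraries of the 1340 schedule stood apart from those of the 2680 schedule in low-level transcripts of other organs. Albumin (Alb), the main protein of plasma, had 1126 to 1644 counts in the 1340 kidneys and 166 to 198 in the 2680 kidneys. Kap, an androgen-dependent product of the proximal tubule, had 301 to 425 counts in the 1340 livers and 10 to 119 in the 2680 livers. Transcripts of neurons showed the same split in both organs: Snap25, a protein of synaptic vesicle release, had 72 to 100 counts in the 1340 livers, 58 to 92 in the 1340 kidneys and 0 or 1 in every 2680 library. Of a list of 15 brain genes, chosen after the libraries had been examined, 13 had at least 10 counts in every 1340 library, and 9 were at 0 in all 3 livers of the 2680 schedule. A set of 43 genes that were high in liver and at or near 0 in kidney among the NMN-gavaged mice of the 2680 schedule summed, in the 4 water kidney libraries of the 1340 schedule, to between 0.0783% and 0.118% of their liver level. In the 3 kidney libraries of the 2680 schedule the same sum was between 0.00349% and 0.00377%. The reverse set of 12 kidney genes reached between 0.134% and 0.195% of the kidney level in the 1340 livers, against 0% to 0.0201% in the 2680 livers. Since both sets were chosen for low counts in libraries of the 2680 schedule, their low sums in the 2680 water libraries were largely fixed by that choice, and the sums describe the size of the traces only. The origin of these transcripts was not tested. For genes that 1 organ hardly expresses, values pooled over the schedules include the counts of the 1340 libraries, and for some of them the values of both schedules are given. Where an organ had under 10 counts in a schedule, the fitted fold change rests on those few counts.

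**Figure D1:**
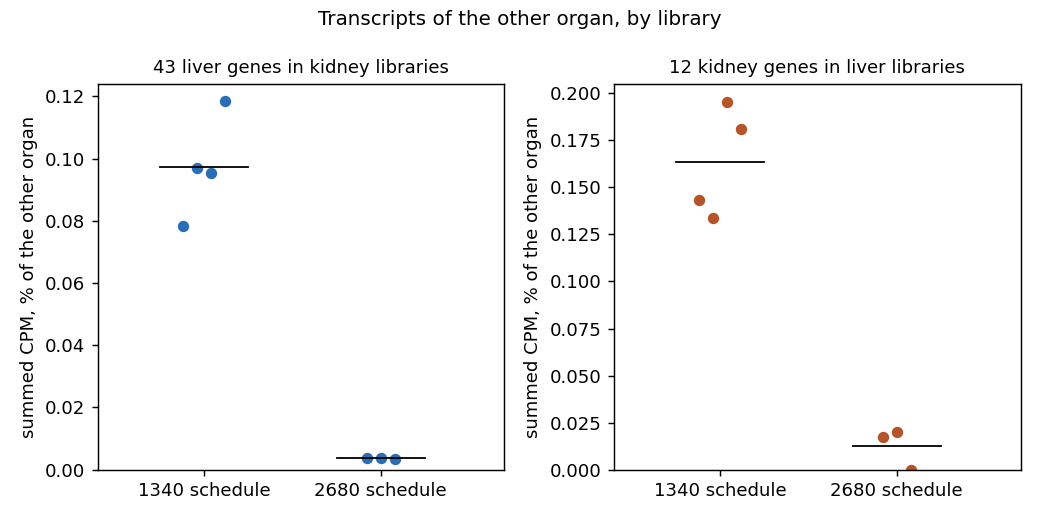
Summed CPM of genes of the other organ in each water library, as a percentage of their mean sum in that organ: 43 liver genes in the kidney libraries on the left and 12 kidney genes in the liver libraries on the right. Each point is 1 library and each bar the group mean. The 4 libraries of the 1340 schedule lie above all 3 of the 2680 schedule in both panels, an order that the choice of genes with few counts in NMN-gavaged mice of the 2680 schedule favours.

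The organs differed in a large part of the transcriptome. Of 14331 genes tested over the 14 libraries with the schedule as a block, 6327 (44.1%) were called, 2497 (17.4%) higher in liver and 3830 (26.7%) higher in kidney. Differences over 16-fold were found for 610 genes in liver and 1169 in kidney. The kidney libraries also held more kinds of transcript, with 14771 to 15300 genes at 10 or more counts against 12154 to 12659 in liver (two-sided exact permutation test over the libraries, p = 0.00058, the smallest the design allows). Albumin alone made up 6.71% to 12.05% of all counts in the liver libraries. The 10 most abundant genes of a library held 17.96% to 20.9% of the counts in the 4 livers and 14.2% to 15.7% in the 4 kidneys of the 1340 schedule (two-sided exact permutation test, p = 0.029, the smallest possible), but 23.3% to 24.3% in the 3 livers and 25.3% to 27.3% in the 3 kidneys of the 2680 schedule (p = 0.10, the smallest possible). The division of the calls between the organs depended on the scaling. With library totals in place of TMM factors the calls were 1199 higher in liver and 7355 higher in kidney (14.02% in liver against 39.5%), and the median log2 fold change of all genes moved from -0.09 to -1.06. With upper quartile scaling they were 2057 and 4320 (32.3% in liver), with a median of -0.28. Of the 196 tested genes named in what follows, library totals took the call from 14 and gave one to 18, and no called gene changed direction. The genes that lost their call with library totals, all from the liver side, included F13b, Ass1, Agtr1a, Slc26a1, Thpo, Ugdh, Kmo, Glul, Glud1 and Slc2a2.

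The organ difference repeated closely between the schedules. Fitted separately, the 1340 libraries gave 6016 calls of 14599 genes (41.2%), 2355 higher in liver and 3661 in kidney. The 2680 libraries alone, which hold few of the traces, gave 6474 of 14844 (43.6%), 2403 in liver and 4071 in kidney. Of these, 5212 genes were called in both, which is 86.6% of the first list and 80.5% of the second, and all 5212 had the same direction. Over the 14198 genes tested in both, Pearson's r of the log2 fold changes across genes was 0.952 and the median difference without regard to sign 0.25, but at the 95th percentile the schedules were 2.27 apart. Among the 8220 genes at 5 CPM or more in each of the 4 groups, the 95th percentile was 0.58 and r was 0.972. Genes are not independent replicates, and these correlations are descriptions. Tested directly, 289 genes (2.02%) had an organ difference that depended on the schedule at an adjusted p under 0.05, 95 more liver-sided and 194 (1.35%) more kidney-sided in the 2680 libraries. In 245 of the 289 (84.8%) the lower organ had a mean under 5 CPM. At 5 CPM or more in each of the 4 groups were 31 of the 289, beside 8220 of the 14331 tested genes.

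**Figure D2:**
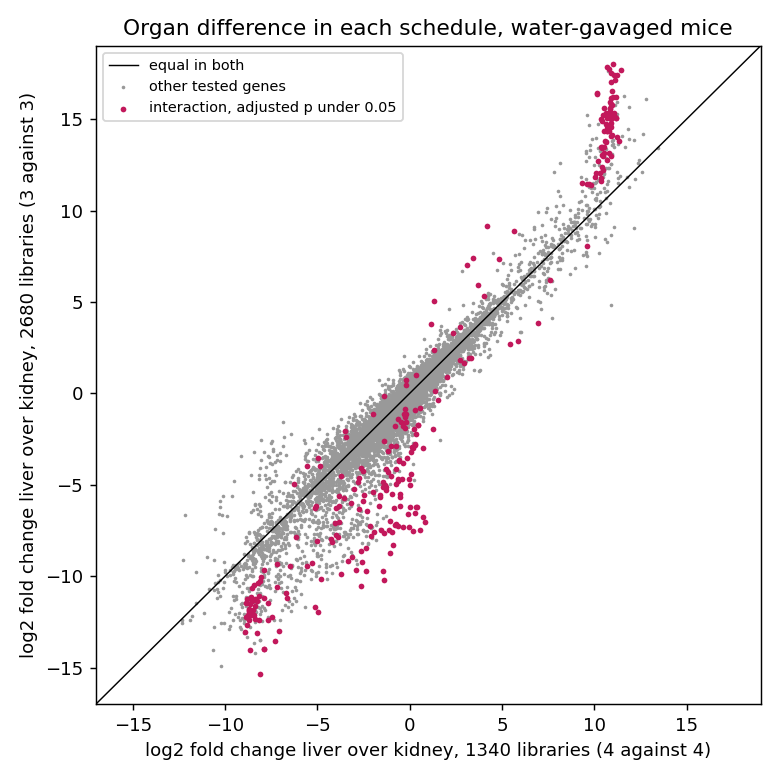
Log2 fold change of liver over kidney in the 1340 libraries (horizontal) against the 2680 libraries (vertical), each point 1 of the 14198 genes tested in both, with the 289 genes of the interaction test in red where both values exist. Points follow the line of equality in the middle and bend away from it at both ends, where the 1340 values level off while the 2680 values go on.

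Among nuclear genes, the highest mean level per kilobase of transcript in liver was that of Alb (55919 CPM in liver and 16.04 in kidney), followed by the lipoprotein genes Apoa2 (20448 CPM per kilobase) and Apoe (14869) and the major urinary protein Mup3 (14369), all of which encode secreted proteins. Fabp1 (8327), a fatty acid carrier of the cytosol, and Cyp2e1 (5312), an enzyme of the endoplasmic reticulum, were also among the first 15. The genes with the widest gap between the organs at 100 CPM or more in liver were Apon, an apolipoprotein, F11 and F9, coagulation factors, Serpina6, the carrier of corticosteroids, Serpina3k and Serpina1e, protease inhibitors, Ahsg (fetuin-A), which restrains calcification, and Ces1b, a carboxylesterase. F11 was between 103 and 149.5 CPM (median 125) in liver and gave 1 count in 1 of the 7 kidney libraries. F9 was between 204 and 341 CPM (median 273) in liver and at most 0.0874 CPM in kidney. Apon was between 461 and 766 CPM (median 553) in liver and had 7 counts in all 7 kidney libraries together. Serpina6 was between 132 and 435 CPM (median 276) in liver and at most 0.0906 CPM in kidney, and Ces1b between 114 and 176 CPM (median 164) and at most 0.136 CPM. None of these 5 genes overlapped between the organs over the 14 libraries, and neither did 50.7% of all tested genes. Serpina3k, Serpina1e and Ahsg were far more abundant in liver and gave counts in every 1340 kidney. Ahsg was between 11919.8 and 18088 CPM (median 14896) in liver, with 113 to 179 counts in the 1340 kidneys and 1 to 3 in the 2680 kidneys, and its log2 fold change was 11.08 in the 1340 and 17.39 in the 2680 libraries (interaction, adjusted p = 3.0e-08). Serpina3k, Serpina1e and Mup3 belong to families of near-identical genes whose reads the counting may have divided or dropped, so their levels are uncertain.

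All 24 plasma protein genes tested were higher in liver, as were all 30 coagulation and complement genes, beside 17.4% of all tested genes, and every one of these was also called in both schedules fitted separately. Their median log2 fold changes were 10.01 and 9.37, against -0.09 over all genes. Gc, the carrier of vitamin D, was between 8739.6 and 12933 CPM (median 9892) in liver and between 14.8 and 37.3 CPM (median 28.8) in kidney (log2 fold change 8.69 ± 0.18, adjusted p = 5.1e-18). Trf, transferrin, which carries iron, was between 2899 and 4659.6 CPM (median 3890.0) and between 3.44 and 5.82 CPM (median 4.81) (9.64 ± 0.18). Fga, a chain of fibrinogen, was between 6931 and 10039 CPM (median 7817) and between 15.7 and 22.6 CPM (median 18.3) (8.75 ± 0.14). The smallest difference among the coagulation and complement genes was that of F13b, a subunit of the factor that stabilises clots, and among the plasma proteins that of Apom, a carrier of sphingosine phosphate. F13b was between 186 and 334 CPM (median 250.3) in liver and between 70.1 and 129 CPM (median 89.1) in kidney (1.39 ± 0.10, adjusted p = 5.1e-10), and Apom between 288 and 512 CPM (median 404) and between 27.3 and 43.1 CPM (median 34.1) (3.59 ± 0.09). Both genes were thus expressed in kidney, with no overlap between the organs.

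Urea and bile acid metabolism followed the same direction. All 8 urea cycle genes were called higher in liver (median 7.06), against 7 with upper quartile scaling and 5 with library totals, and 7 were called in both schedules fitted separately. They fell into groups of very different size. Otc, which joins ornithine and carbamoyl phosphate, was between 612 and 766 CPM (median 649) in liver, with 2 to 13 counts in the 1340 kidneys and 0 to 1 in the 2680 kidneys, and Nags, which makes the activator of the first step, had 2 counts in 7 kidney libraries against between 78.4 and 138 CPM (median 109) in liver. Ass1, the enzyme of arginine synthesis, was in contrast between 2690.0 and 3716 CPM (median 2827) in liver and between 923 and 1518 CPM (median 1416) in kidney, a log2 fold change of only 1.15 ± 0.12 (adjusted p = 4.4e-08). Asl, the next enzyme, differed by 2.32 ± 0.12 and Slc25a15, the ornithine carrier of the mitochondrion, by 1.90 ± 0.09. Of 15 bile acid genes 12 were higher in liver and none in kidney, beside 17.4% and 26.7% of all tested genes. Baat, which joins bile acids to amino acids, was between 345 and 512 CPM (median 426) and between 0.634 and 2.22 CPM (median 1.22) (8.43 ± 0.24). Cyp7a1, the rate-limiting enzyme of bile acid synthesis, had 342 to 2054 counts in the 1340 livers and 399 to 1413 in the 2680 livers, against 0 to 8 in the kidneys, and so varied widely among livers. Amacr, a racemase of peroxisomes (0.08 ± 0.11), Abcc2, an export pump for organic anions (0.63 ± 0.15), and Nr1h4, the bile acid receptor (0.76 ± 0.12), were not called and were expressed above 80 CPM in the median library of both organs.

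Cytochromes P450 were divided. Of 23 genes, 18 were higher in liver and 2 in kidney, beside 17.4% and 26.7% of all tested genes. Cyp2f2 was between 1158 and 2018 CPM (median 1739.9) in liver and between 1.59 and 3.71 CPM (median 2.62) in kidney (9.44 ± 0.19), and Cyp2e1, which metabolises ethanol, was between 7560.2 and 15335 CPM (median 10909.7) and between 916 and 1671 CPM (median 1243) (3.13 ± 0.13). The kidney genes were Cyp4b1, between 1633 and 2338 CPM (median 1891) in kidney and between 11.5 and 18.9 CPM (median 13.6) in liver (-7.02 ± 0.15, adjusted p = 7.3e-18), and Cyp2j13, between 197 and 346 CPM (median 259) in kidney, with a log2 fold change of -8.87 in the 1340 libraries and -11.17 in the 2680 libraries. Cyp2j5, an epoxygenase of arachidonic acid, was between 693 and 988 CPM (median 836) in liver and between 1058 and 1411 CPM (median 1130.4) in kidney, and its log2 fold change of -0.53 ± 0.08 did not pass the fold limit. The Cyp2c, Cyp2d, Cyp3a and Cyp4a genes belong to close families and their single values are uncertain.

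**Figure D3:**
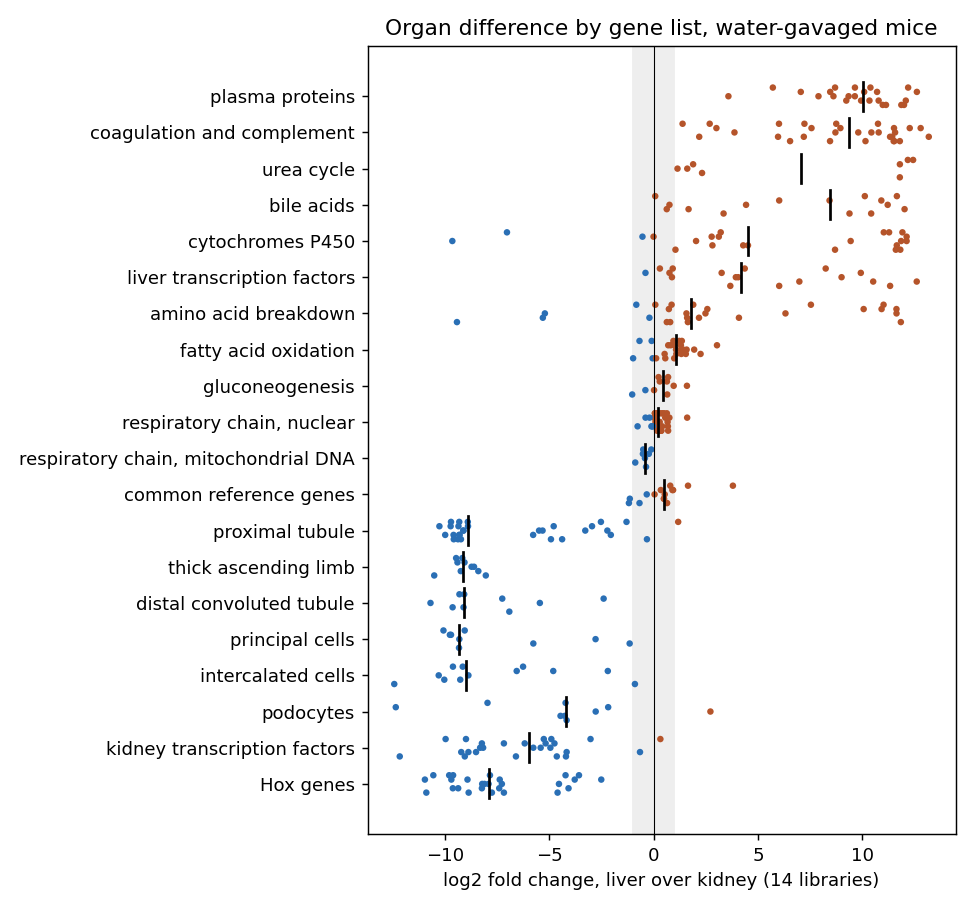
Log2 fold change of liver over kidney for every tested gene of 20 lists, each point 1 gene (red above 0, blue below 0), with the list's median as a black bar and the band of less than 2-fold in grey. The liver lists lie to the right and the tubule, transcription factor and Hox lists of the kidney to the left, while the lists of gluconeogenesis and of the respiratory chain lie near 0.

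In the kidney, most of the listed genes of the proximal tubule, thick ascending limb, distal convoluted tubule and collecting duct were higher. Among nuclear genes Kap had the highest level per kilobase (22119 CPM per kilobase in kidney, 31.0 in liver), followed by Gpx3, the glutathione peroxidase that the kidney secretes into plasma (11394 and 19.3). Of 30 proximal tubule genes 28 were called higher in kidney, beside 26.7% of all tested genes, with a median log2 fold change of -8.89 (-8.06 in the 1340 and -9.08 in the 2680 libraries, there with 1 gene that had no liver count at its bound of 3 counts over the livers). Slc34a1, which recovers phosphate, had 98953 to 110472 counts in the 1340 kidneys and 77668 to 91498 in the 2680 kidneys, against 110 to 137 and 2 to 27 in the livers of these schedules. Slc22a6, an organic anion transporter, was between 665 and 948 CPM (median 788) in kidney, with a log2 fold change of -8.81 in the 1340 libraries and -12.68 in the 2680 libraries (interaction, adjusted p = 0.002). Slc13a1, which recovers sulphate, was between 196 and 253 CPM (median 212) in kidney and between 0 and 0.454 CPM (median 0.219) in liver. Lrp2 (megalin), the endocytic receptor that takes filtered proteins back, was between 979 and 1451 CPM (median 1354) in kidney, and its log2 fold change was -8.41 in the 1340 and -10.47 in the 2680 libraries (interaction, adjusted p = 0.027). The 2 other members were Slc26a1, a sulphate exchanger that hepatocytes also carry, which was higher in liver (between 216 and 316 CPM (median 261) against between 102 and 134 CPM (median 118), 1.18 ± 0.08), and Slc22a7, another organic anion transporter, which was not called (-0.31 ± 0.26).

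Genes of the later segments were higher in kidney too. All 10 genes of the thick ascending limb, all 9 of the distal convoluted tubule, all 9 tested of the principal cells and 11 of 12 of the intercalated cells were higher in kidney, beside 26.7% of all tested genes. Those with few liver counts entered the test through the kidney and had to differ. The thick ascending limb genes, for example, summed to a mean of 6.97 CPM in liver. The medians of these lists were -9.10, -9.06, -9.30 and -8.999. Since 4, 3, 5 and 4 genes of these lists had no count in any liver of the 2680 schedule, where a fitted fold change is no bound, medians were also taken with such genes at their bound. They were -8.88, -8.30, -9.30 and -8.999 over both schedules, -8.08, -6.99, -8.35 and -8.19 in the 1340 libraries and -9.78, -7.99, -8.93 and -8.76 in the 2680 libraries. Bsnd, the subunit that chloride channels of the limb need, was between 40.2 and 49.3 CPM (median 46.8) in kidney. Ptger3, a prostaglandin receptor, was between 22.6 and 38.3 CPM (median 28.9), and Kcnj10, a potassium channel of the distal tubule, between 50.7 and 63.7 CPM (median 55.8) in kidney against between 0.328 and 2.34 CPM (median 1.03) in liver (-5.44 ± 0.26). Scnn1g, a subunit of the epithelial sodium channel, was between 24.1 and 38.4 CPM (median 34.2) in kidney, and Aqp3, a water channel of principal cells, between 56.1 and 76.00 CPM (median 65.2). Hsd11b2, which shields the mineralocorticoid receptor from cortisol-like hormones, was between 119 and 156 CPM (median 126) in kidney and between 0 and 0.467 CPM (median 0.0730) in liver. Rhcg, an ammonia channel of intercalated cells, was between 71.8 and 102 CPM (median 85.4) and Car2, a cytosolic carbonic anhydrase, between 289 and 337 CPM (median 306) against between 6.80 and 14.6 CPM (median 11.5) in liver (-4.80 ± 0.13, adjusted p = 1.8e-16). The kidney values of Bsnd, Scnn1g, Aqp3, Rhcg and Hsd11b2 lay above every liver value. Rhbg, a relative of Rhcg, was the intercalated cell gene that was not called (-0.89 ± 0.17). Among the genes with the widest gap were also Guca2b (uroguanylin), a peptide that promotes salt loss, with between 161 and 257 CPM (median 206) in kidney and between 0 and 0.467 CPM (median 0.106) in liver, Lrrc19 with between 137 and 236 CPM (median 151) and at most 0.317 CPM, Tmem52b with between 120.4 and 188 CPM (median 150.4), and Car12, a membrane carbonic anhydrase, with between 209 and 286 CPM (median 243).

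Of 9 podocyte genes 8 were higher in kidney, beside 26.7% of all tested genes. Nphs1 (nephrin), a protein of the filtration slit, was between 9.35 and 16.99 CPM (median 15.5) in kidney, and Podxl (podocalyxin), which vessels carry as well, was between 95.3 and 153 CPM (median 120.4) in kidney and between 3.27 and 7.30 CPM (median 5.90) in liver (-4.45 ± 0.18).

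The transcription factors that mark each organ differed between them, with a few shared members. Of 18 liver factors 13 were higher in liver and none in kidney (median 4.21), beside 17.4% and 26.7% of all tested genes, and of 26 kidney factors 24 were higher in kidney and none in liver (median -5.96). Foxa3, a pioneer factor of hepatocytes, was between 52.4 and 135 CPM (median 82.5) in liver and at most 0.175 CPM in kidney. Onecut2 was between 61.04 and 203 CPM (median 117) and between 0 and 0.181 CPM (median 0.0837), and Cebpa, which controls hepatocyte metabolism, between 602 and 967 CPM (median 816) and between 30.7 and 46.2 CPM (median 36.96) (4.37 ± 0.12). Pax2, which specifies the nephric lineage, was between 26.3 and 37.9 CPM (median 31.9) in kidney and had 2 counts in 1 liver library and 0 in the other 6. Tfcp2l1, a factor of the collecting duct, was between 209.5 and 320.3 CPM (median 283) and between 2.95 and 10.4 CPM (median 6.13) (-5.40 ± 0.16), and Mecom between 26.5 and 34.2 CPM (median 27.7) and between 0.516 and 1.15 CPM (median 0.803) (-5.25 ± 0.16). Nr3c2, the mineralocorticoid receptor, was at a similar level in both organs, between 11.3 and 14.3 CPM (median 12.1) in kidney and between 11.2 and 19.99 CPM (median 13.7) in liver (0.33 ± 0.13, adjusted p = 0.026).

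Hox genes, which record the position of a tissue along the body axis, were found on the kidney side. Of 39 genes 27 had enough counts to be tested, and all 27 were higher in kidney (median -7.90, or -7.16 with genes that had no liver count at their bound), beside 26.7% of all tested genes. Because a gene entered the test if either organ had counts, and the liver had few in any Hox gene, those that entered had to differ. Of all 39, 19 had no count in any liver library and 7 none in any kidney library. Hoxa9 was between 39.2 and 65.3 CPM (median 42.7) in kidney, Hoxa10 between 32.2 and 43.6 CPM (median 37.7) and Hoxa7 between 28.2 and 42.04 CPM (median 34.5). Summed over the list, Hox genes gave 442 ± 43.4 CPM in kidney and 4.31 ± 0.96 CPM in liver (mean ± SD, n = 7 each).

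Promoter sequence was read for the genes with the widest differences. Foxa3 binds DNA through a forkhead domain that it shares with its relatives, and a core of their sites is TGTTTAC. That word was searched on both strands in the 250 bases before the start of each gene (promoter windows of RefSeq, build GRCm38.p6). It was present in 6.05% of the 430 genes with a window among those called over 16-fold higher in liver, in 4.77% of the 817 over 16-fold higher in kidney, in 2.99% of the 10892 tested genes and in 3.54% of all 27025 genes with a window. The windows also differed in composition, with a median of 3 CpG in the liver genes, 8 in the kidney genes and 15 in all tested genes, and the shares were not corrected for composition. Of 2 other words searched in the same way, CAAAGTCCA (a site of HNF4) was present in 2.33%, 0.857%, 0.514% and 0.451% of the liver genes, kidney genes, tested genes and all genes, and CACGTG (the E-box) in 4.19%, 7.83%, 9.70% and 6.86%. None of the 3 words contains another. A match is a description of the letters and not evidence of binding. The windows of the 5 genes named in the text that differed over 16-fold and hold TGTTTAC are shown so that its place can be compared, written 5′ to 3′ on the strand of the gene and ending at the base before its start, with the word or its complement in capitals. Higher in liver were F11 (chr8:45262032-45262281, minus strand), Apoa2 (chr1:171224804-171225053, plus strand) and Bbox1, an enzyme of carnitine synthesis (chr2:110305726-110305975, minus strand). Higher in kidney were Lrrc19 (chr4:94650145-94650394, minus strand) and Akr1c21, a hydroxysteroid dehydrogenase (chr13:4573825-4574074, plus strand).
F11: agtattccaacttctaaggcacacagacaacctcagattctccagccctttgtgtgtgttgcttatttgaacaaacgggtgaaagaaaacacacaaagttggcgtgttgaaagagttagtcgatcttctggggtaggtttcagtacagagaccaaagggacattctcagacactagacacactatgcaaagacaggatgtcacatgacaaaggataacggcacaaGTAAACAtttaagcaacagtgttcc
Apoa2: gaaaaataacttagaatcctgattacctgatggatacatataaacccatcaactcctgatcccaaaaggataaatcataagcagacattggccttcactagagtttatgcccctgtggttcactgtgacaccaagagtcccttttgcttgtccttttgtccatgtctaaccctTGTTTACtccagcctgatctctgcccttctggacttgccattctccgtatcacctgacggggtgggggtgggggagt
Bbox1: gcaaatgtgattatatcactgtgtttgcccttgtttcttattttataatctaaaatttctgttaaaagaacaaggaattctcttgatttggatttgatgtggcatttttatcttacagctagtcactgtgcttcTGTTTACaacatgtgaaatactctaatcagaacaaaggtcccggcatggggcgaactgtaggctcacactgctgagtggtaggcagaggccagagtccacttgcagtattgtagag
Lrrc19: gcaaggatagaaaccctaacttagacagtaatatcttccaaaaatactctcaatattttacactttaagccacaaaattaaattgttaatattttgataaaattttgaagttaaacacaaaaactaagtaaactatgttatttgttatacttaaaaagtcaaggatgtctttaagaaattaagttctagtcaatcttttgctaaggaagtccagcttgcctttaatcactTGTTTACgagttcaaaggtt
Akr1c21: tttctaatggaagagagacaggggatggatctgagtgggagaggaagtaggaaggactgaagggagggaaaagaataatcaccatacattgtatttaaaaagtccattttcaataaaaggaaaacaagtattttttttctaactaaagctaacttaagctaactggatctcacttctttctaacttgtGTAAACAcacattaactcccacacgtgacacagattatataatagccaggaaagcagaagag
Each window holds the word once. Its first base lay 25 bases before the start of F11, 77 before that of Apoa2, 116 for Bbox1, 20 for Lrrc19 and 62 for Akr1c21, so that it was found both in genes of liver and in genes of kidney.

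Several pathways had some genes higher in liver and others higher in kidney, in only some of them at successive steps. Creatine is made in successive steps. Gatm, the first enzyme, was between 160.0 and 274 CPM (median 231) in kidney and between 1.22 and 3.39 CPM (median 1.64) in liver (-6.79 ± 0.22, adjusted p = 7.0e-15). Gamt, the second, was between 242 and 405 CPM (median 320.4) in liver and between 13.04 and 22.7 CPM (median 14.9) in kidney (4.30 ± 0.17, adjusted p = 6.3e-14). Slc6a8, the creatine transporter (-4.57 ± 0.10), and Ckb, the brain-type creatine kinase (-3.25 ± 0.13), were higher in kidney. All 4 genes had no overlap between the organs, beside 50.7% of all tested genes.

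Vitamin D is first hydroxylated in the liver and then activated in the kidney. Cyp2r1, the main enzyme of the first step, was between 16.6 and 26.6 CPM (median 22.98) in liver and between 0.453 and 1.06 CPM (median 0.743) in kidney (4.79 ± 0.17), and Cyp27a1, a mitochondrial sterol hydroxylase, between 554 and 818 CPM (median 695) and between 26.4 and 38.2 CPM (median 32.4) (4.43 ± 0.12). Cyp27b1, the activating enzyme, had 136 to 353 counts in the 1340 kidneys and 122 to 190 in the 2680 kidneys, with 0 to 6 in any liver library. Cyp24a1, which inactivates the hormone, was between 24.6 and 108 CPM (median 44.6) in kidney, and Vdr, the receptor, between 186 and 205 CPM (median 194) there, with at most 0.716 CPM in liver. Cubn (cubilin), which with megalin takes the filtered carrier back, was between 228 and 335 CPM (median 288). Of the 8 genes 3 were higher in liver and 5 in kidney, beside 17.4% and 26.7% of all tested genes.

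The genes of the angiotensin system were split in the same way. Agt, the precursor, was between 896 and 1238 CPM (median 1055) in liver and between 37.9 and 55.4 CPM (median 47.4) in kidney (4.46 ± 0.12, adjusted p = 9.8e-17). Ren1 (renin), which cuts it, was between 21.8 and 49.7 CPM (median 28.9) in kidney and had 2 counts in 1 of 7 livers. Ace, the converting enzyme of the next step, was between 96.6 and 153 CPM (median 122) and between 0.423 and 1.96 CPM (median 1.39) (-6.61 ± 0.20). The receptor Agtr1a was higher in liver, between 51.4 and 116 CPM (median 88.2) against between 24.6 and 36.3 CPM (median 32.4) (1.47 ± 0.12, adjusted p = 1.2e-09), the peptidase Mme was higher in kidney (-1.84 ± 0.12), and Enpep, another peptidase, was not called (-0.10 ± 0.12). Agtr1b had too few counts to be tested.

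Vitamin C is made in the mouse liver by Gulo, the enzyme that primates have lost. Gulo was between 582 and 698 CPM (median 663) in liver and at most 0.524 CPM in kidney, and Rgn, the preceding lactonase, between 1289.7 and 1643 CPM (median 1587) and between 4.08 and 6.99 CPM (median 5.27) (8.14 ± 0.14). Miox, which takes myo-inositol into glucuronate, was between 1271 and 1517 CPM (median 1355) in kidney with 26 to 38 counts in the 1340 livers and 1 to 11 in the 2680 livers. The other steps differed less. Akr1a1 (-1.08 ± 0.09), the vitamin C transporter Slc23a1 (-1.29 ± 0.08) and Isyna1, which makes inositol (-1.79 ± 0.19), were higher in kidney, Ugdh (1.14 ± 0.12) was higher in liver, and Impa1 (0.59 ± 0.09) was not called.

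Uric acid is made and broken down in the liver and handled by the kidney. Xdh, which makes it, was between 89.9 and 161 CPM (median 136) in liver and between 13.8 and 20.5 CPM (median 17.7) in kidney (2.89 ± 0.11). Uox, Urah and Urad, the successive steps of its breakdown, were almost restricted to liver. Uox was between 1531 and 3167 CPM (median 2584), with 22 to 62 counts in the 1340 kidneys and 0 to 2 in the 2680 kidneys, Urah was between 291 and 399 CPM (median 371) against between 0.712 and 1.89 CPM (median 1.44) in kidney (8.04 ± 0.18), and Urad was between 28.9 and 39.6 CPM (median 32.8) with 1 count in 7 kidneys. Slc22a12, which recovers urate from the tubule, was between 429 and 1072 CPM (median 715) in kidney, with 13 to 24 counts in the 1340 livers and 0 to 1 in the 2680 livers. The exporter Abcg2 was higher in kidney (-1.48 ± 0.09) and the transporter Slc2a9 in liver (2.04 ± 0.12).

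Ketone bodies, glutamine and carnitine gave further examples. Oxct1, which tissues need to burn ketone bodies, was between 647 and 975 CPM (median 809.7) in kidney and between 3.28 and 8.05 CPM (median 6.72) in liver (-6.98 ± 0.15, adjusted p = 1.0e-17). Gls2, the glutaminase known from liver, was between 425 and 719 CPM (median 488) in liver and at most 0.611 CPM in kidney. Glul (1.62 ± 0.10), Glud1 (1.97 ± 0.08) and the glutamine transporter Slc38a3 (5.38 ± 0.20) were higher in liver. Of the 5 glutamine genes 4 were higher in liver and 1 in kidney, beside 17.4% and 26.7% of all tested genes. Bbox1, the last enzyme of carnitine synthesis, was between 126 and 252 CPM (median 191) in liver and between 0.241 and 1.42 CPM (median 0.960) in kidney (7.75 ± 0.29), the carnitine transporter Slc22a5 was higher in kidney (-3.17 ± 0.15), and Aldh9a1 was not called (-0.16 ± 0.08).

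Of 4 tested genes of the list of circulating hormones, 3 were higher in liver and 1 in kidney, beside 17.4% and 26.7% of all tested genes. Igf1, a growth factor, was between 864 and 969.6 CPM (median 906) in liver and between 7.65 and 11.3 CPM (median 10.1) in kidney (6.52 ± 0.10, adjusted p = 6.4e-19). Hamp (hepcidin), which blocks iron export, was between 1025 and 2806 CPM (median 1273) in liver, with 13 to 40 counts in the 1340 kidneys and 0 in all 3 of the 2680 kidneys. Thpo, which drives platelet formation, was between 17.2 and 30.8 CPM (median 21.7) and between 5.90 and 13.4 CPM (median 7.55) (1.51 ± 0.15). Kl (klotho), a co-receptor for the hormone that lowers phosphate, was between 490.2 and 664 CPM (median 554) in kidney, with a log2 fold change of -8.81 in the 1340 and -11.24 in the 2680 libraries. Epo and Fgf21 had too few counts to be tested.

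**Figure D4:**
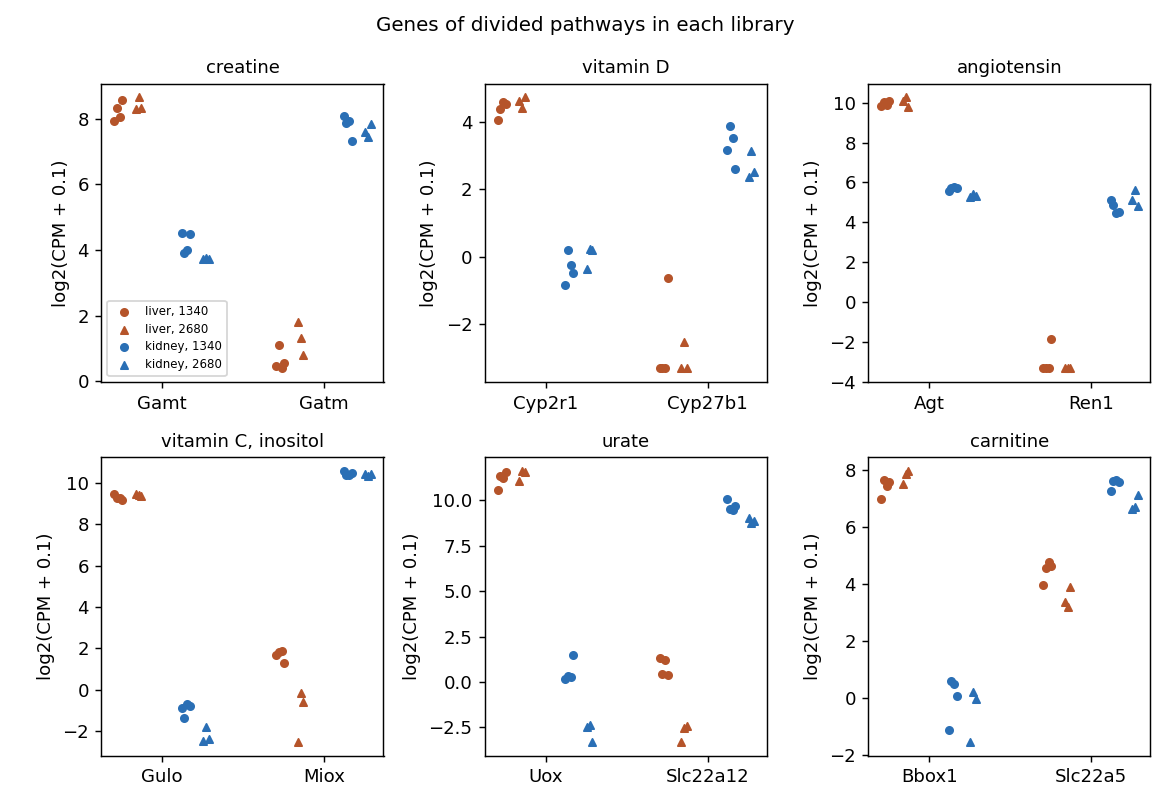
Log2 of CPM plus 0.1 of 12 genes in each of the 14 water libraries, liver in red and kidney in blue, circles for the 1340 and triangles for the 2680 schedule. Each panel holds a liver gene on the left and a kidney gene of the same pathway on the right, and in every panel the organs do not overlap for either gene.

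Isozymes followed the organ. Among 12 pairs of genes with the same activity, written with the form known from liver first, 10 had the first member called higher in liver, 11 had the second called higher in kidney and 10 had both, and none had a member called in the opposite direction under TMM scaling. Among all tested genes, 17.4% were called higher in liver and 26.7% higher in kidney. Levels within a pair were compared as CPM per kilobase. Pklr made up 95.9% of the pyruvate kinase pair in liver and 15.2% in kidney, where Pkm was higher. Hao1 and Hao2, oxidases of hydroxy acids, were exchanged almost fully, at 99.9% and 0.0621% for the first. Mat1a was 1073 CPM per kilobase in liver and 0.349 in kidney, and Mat2a 2.65 and 16.3. The kidney counts of Mat1a were 25 to 66 in the 1340 and 0 to 4 in the 2680 libraries. In glycogen metabolism, Gys2 and Pygl, the synthase and phosphorylase of liver, were higher there (3.57 ± 0.16 and 5.08 ± 0.11), and Gys1 and Pygb in kidney (-3.20 ± 0.15 and -2.38 ± 0.12), so that the liver forms made up 99.2% and 98.9% of their pairs in liver and 51.8% and 34.7% in kidney. Transporters were divided to unequal degrees. Slc10a1, the bile acid uptake carrier of hepatocytes, had a log2 fold change of 10.42 ± 0.32 and Slc10a2, its ileal and renal relative, one just past the fold limit on the kidney side. Aqp9, which admits glycerol to hepatocytes, was between 484 and 672 CPM (median 606) in liver and at most 0.377 CPM in kidney, and Aqp1, the water channel of the proximal tubule, was higher in kidney (-2.94 ± 0.18). The glucose transporter Slc2a1 (-1.17 ± 0.15), the dicarboxylate transporter Slc13a2 (-3.34 ± 0.27) and the fatty acid carrier Fabp3 (-7.06 ± 0.26) were higher in kidney, and Car3, a carbonic anhydrase (5.08 ± 0.20), and Fabp1, the fatty acid carrier of hepatocytes (11.64 ± 0.54), in liver. Fabp1 had 50 to 78 counts in the 1340 kidneys and 6 to 11 in the 2680 kidneys. The pairs without a call on both sides were Slc13a5 (-0.43 ± 0.42), which was low in both organs, and Pfkl with Pfkm (0.17 ± 0.10 and -0.77 ± 0.10).

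**Figure D5:**
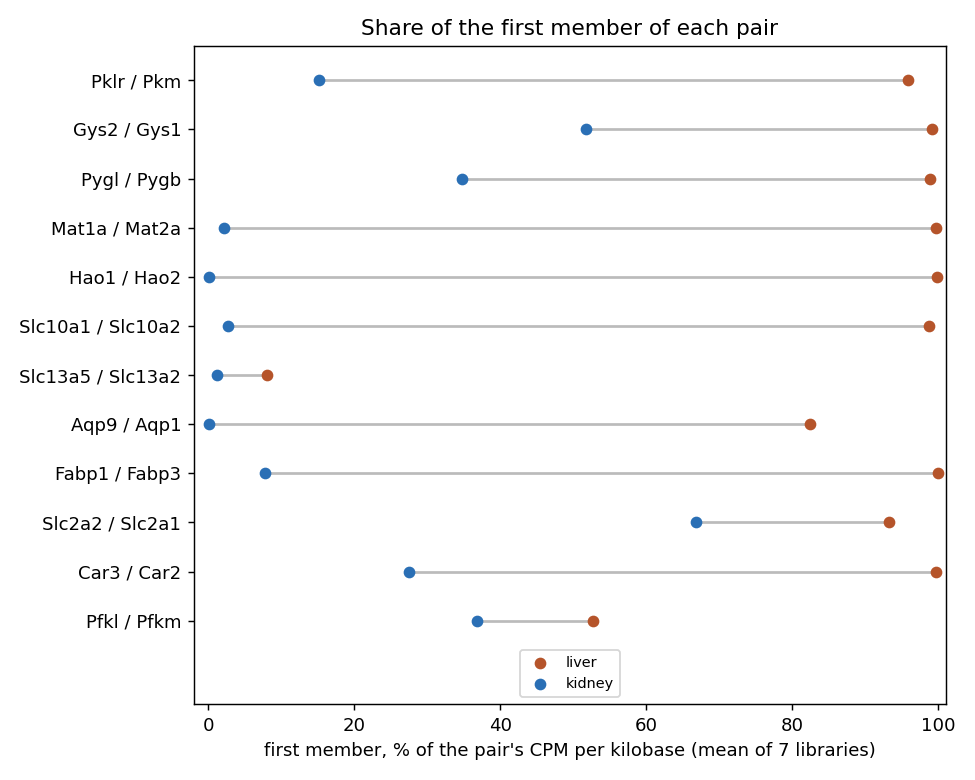
Share of the first gene of each of 12 pairs in the pair's summed CPM per kilobase, as a percentage, in liver (red) and kidney (blue), each point the mean of 7 libraries. The share was higher in liver in every pair, from 52.7% for Pfkl upward except for Slc13a5 at 8.06%.

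A large share of genes was alike. For 5703 genes (39.8%) the 95% interval of the log2 fold change lay within 1 of 0, and for 1957 (13.7%) within 0.5. Of 37 nuclear genes of the respiratory chain, 36 had an interval within 1 of 0 (median 0.23), and 1 was called, Uqcrq, a subunit of complex III (1.61 ± 0.11). With library totals 6 of the 37 were called higher in kidney and none in liver. Atp5b, a subunit of ATP synthase, was between 1208 and 1912 CPM (median 1631) in liver and between 1655 and 2029 CPM (median 1821) in kidney (-0.21 ± 0.10), and Sdha, a subunit of complex II, between 481 and 734 CPM (median 569.9) and between 515 and 588 CPM (median 561) (0.05 ± 0.08). None of the 7 tested genes of the mitochondrial genome was called with TMM factors, for example mt-Co1 (-0.11 ± 0.13), against all 7 higher in kidney with library totals and 1 with upper quartile scaling. In the 2680 libraries alone, with TMM factors, 1 was higher in kidney, and the median of the 7 was -0.82 against -0.21 in the 1340 libraries. The share of mitochondrial transcripts in the libraries was 4.57% ± 0.66 (SD, n = 4) in liver and 9.71% ± 0.70 (n = 4) in kidney in the 1340 schedule (two-sided exact permutation test, p = 0.029, the smallest possible) and 6.67% ± 0.84 (n = 3) and 20.6% ± 0.91 (n = 3) in the 2680 schedule (p = 0.10, the smallest possible). This share is of library totals, while the test used TMM-scaled values, whose factors were 0.658 to 0.777 in liver and 1.28 to 1.54 in kidney. The most abundant genes whose interval lay within 0.5 of 0 included mt-Nd2 (-0.23 ± 0.12) and mt-Rnr2 (-0.02 ± 0.11) of the mitochondrial genome and Hspa8, a constitutive chaperone (0.01 ± 0.21), whose mean was 1256 CPM in liver and 1230.1 in kidney. Of the 13 protein genes of the mitochondrial genome, mt-Co2, mt-Co3, mt-Atp6, mt-Atp8 and mt-Nd4l had a median of 0 in both organs, and mt-Nd3 had under 1 CPM. The reason was not tested.

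Glucose production was shared as well, with 6 of 10 genes within 1 of 0 (median 0.47, and -0.51 with library totals, where none were higher in liver and 2 in kidney), beside 39.8% of all tested genes. Slc2a2, the low-affinity glucose transporter (1.60 ± 0.14), was higher in liver and Pck2, the mitochondrial carboxykinase (-1.02 ± 0.15), in kidney. In the 2680 libraries alone Slc2a2 and Fbp1 were higher in liver and Pck2 did not pass the fold limit (-0.83). Pck1, the cytosolic form and the controlled step, was between 2398 and 3144 CPM in the 1340 livers and between 2242 and 3607 in the 1340 kidneys, and between 347 and 1137 CPM in the 2680 livers and between 1154 and 1601 in the 2680 kidneys. The organs thus overlapped in the first schedule and not in the second, where every liver lay below every kidney. Its log2 fold change was -0.0085 in the 1340 libraries (adjusted p = 0.97) and -0.97 in the 2680 libraries (adjusted p = 0.083), with an interaction of -0.98 ± 0.40 (adjusted p = 0.34), and -0.39 ± 0.24 over both (adjusted p = 0.15), so that no call was made. Fbp1 was between 972 and 1402 CPM (median 1215) and between 502 and 685 CPM (median 587) (0.97 ± 0.10), close under the fold limit. Fatty acid oxidation leaned to liver, with 14 of 25 genes higher there, beside 17.4% of all tested genes, and none in kidney (median 1.08), although with library totals only 2 were higher in liver and 4 in kidney (median 0.10). Acaa2, a mitochondrial thiolase, had the clearest difference (3.04 ± 0.09), whereas Acadm (-0.67 ± 0.09) and Ehhadh (-0.98 ± 0.11) were not called. Amino acid breakdown had 16 of 26 genes higher in liver and 3 in kidney, beside 17.4% and 26.7% of all tested genes, and 12 and 5 with library totals. Among those higher in liver were Bhmt, which remethylates homocysteine (10.06 ± 0.24), Gnmt (7.53 ± 0.16) and Uroc1 of histidine breakdown (4.09 ± 0.09). Higher in kidney were Dao, which oxidises D-amino acids, at between 217 and 288 CPM (median 248) there (with 4 to 10 counts in the 1340 livers and 0 to 2 in the 2680 livers), and Phgdh (-5.20 ± 0.31) and Psat1 (-5.30 ± 0.21), which make serine and do not break it down.

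Of 15 genes often used as references, 11 were not called, among them Gapdh (0.35 ± 0.10), Actb (0.80 ± 0.19), Hprt (0.50 ± 0.10), Tbp (-0.32 ± 0.12), Polr2a (-0.67 ± 0.08), Ppia (0.65 ± 0.08), Pgk1 (0.49 ± 0.13), Gusb (0.54 ± 0.12), Rplp0 (0.94 ± 0.10) and Sdha. Higher in liver were 2, among them B2m (3.80 ± 0.11), and Ywhaz (-1.18 ± 0.08) and Tfrc (-1.13 ± 0.30) in kidney. Of all 14331 tested genes, 8004 were not called, 17.4% were called higher in liver and 26.7% higher in kidney. With library totals 1 of the 15 was higher in liver and 4 in kidney, and in the 2680 libraries alone 4 and 1.

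The NAD+ pathway, which the study's treatment feeds, had genes on both sides. Of 12 genes 7 were higher in liver, beside 17.4% of all tested genes, and 3 in kidney, which is near the 26.7% of all tested genes. Called in both schedules fitted separately were 6 and 2, and with library totals 5 and 3. The steps from tryptophan were higher in liver, including Haao (2.57 ± 0.10), Kmo (1.92 ± 0.07) and Qprt (2.32 ± 0.09), where Qprt, which makes the mononucleotide of nicotinic acid, was between 229.7 and 309.8 CPM (median 272) in liver and between 47.8 and 60.8 CPM (median 54.8) in kidney. The kidney genes were Nampt, which makes NMN from nicotinamide (between 88.96 and 153 CPM (median 111) in kidney and between 36.8 and 84.9 CPM (median 48.9) in liver, -1.08 ± 0.16, adjusted p = 1.3e-05, but only -0.89 in the 1340 libraries, where it was not called, and -1.40 in the 2680 libraries), Nmrk1, which makes it from the riboside (-1.36 ± 0.16), and Acmsd, which draws tryptophan away from NAD+ (-1.46 ± 0.15).

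Marker genes of other cell types differed too. Of 9 Kupffer cell genes 8 were higher in liver, of 6 genes of liver sinusoidal endothelium 5 and of 5 stellate cell genes all 5, beside 17.4% of all tested genes. Clec4f, a lectin of Kupffer cells, was between 43.9 and 118 CPM (median 68.04) in liver and had 2 counts in 1 kidney and 0 in the other 6. Clec4g, of sinusoidal endothelium, was between 32.5 and 96.9 CPM (median 46.2) in liver, and Reln, of stellate cells, between 25.9 and 62.01 CPM (median 40.5) against between 0.874 and 2.53 CPM (median 1.56) in kidney (4.77 ± 0.25). Csf1r, which all macrophages carry, was not called (-0.13 ± 0.18). Of 7 genes of endothelium in general 3 were higher in kidney over both schedules and 2 in both fitted separately, beside 26.7% of all tested genes, with Emcn at between 25.9 and 60.6 CPM (median 43.6) there and between 1.87 and 4.67 CPM (median 2.33) in liver (-3.94 ± 0.16), and 4 were not called. With library totals 6 of the 7 were higher in kidney. Of 5 genes used as markers of bile ducts 4 were higher in kidney, beside 26.7% of all tested genes, namely Krt7 (-5.91 ± 0.19), Epcam (-4.76 ± 0.16), Krt19 (-1.55 ± 0.28) and Spp1 (-3.04 ± 0.10), all of which kidney epithelium expresses too, and Sox9 was higher in liver (4.002 ± 0.35). Of 5 genes of red cells, Alas2 was higher in liver (6.64 ± 0.45) and 4 globin genes, whose near-identical copies make the counts uncertain, were not called, although with library totals 4 of the 5 were higher in kidney. The adrenal and pancreas lists were near 0, with 1 of 5 and 0 of 6 genes tested.

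Transcripts of adipocytes were found in the kidney libraries, at levels that differed between the schedules. All 4 tested genes of 5 adipocyte genes were called higher in kidney, beside 26.7% of all tested genes. Since the liver had few counts in any of them, those that entered the test had to differ in this direction. The adipocyte genes summed to 84.7 ± 80.6 CPM (SD, n = 7) in kidney, against 0.303 ± 0.215 CPM in liver (n = 7). Cfd (adipsin) was the most abundant. Adipoq (adiponectin) had 18 to 142 counts in the 1340 kidneys and 478 to 624 in the 2680 kidneys, and Plin1, which coats fat droplets, 37 to 130 and 413 to 611. Ucp1, the uncoupling protein of brown fat, had 36 to 230 and 372 to 1017 counts and 0 in every liver. The part of adipose tissue in the other results was not tested.

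The genes whose organ difference depended on the schedule were mostly those that one organ hardly expresses. In 83 of 87 genes that were more liver-sided in the 2680 libraries and lower in kidney, the kidney mean was lower in the 2680 than in the 1340 libraries, and in all 169 that were more kidney-sided and lower in liver the liver mean was lower in the 2680 libraries. The choice of these genes by their schedule difference favours such directions, so the counts are descriptions only. The liver genes with the smallest interaction p at 5 CPM or more were Ahsg, Mup3, Alb, Serpina3k and Mug1. Alb went from 10.69 to 14.34 and Mup3 from 10.89 to 17.05, and Mug1, a protease inhibitor of plasma, had 47 to 79 counts in the 1340 kidneys and 0 to 1 in the 2680 kidneys. The kidney genes were Akr1c21, a hydroxysteroid dehydrogenase (-8.38 to -12.34), Slc1a1, a glutamate transporter (6 to 12 counts in the 1340 livers and 0 to 1 in the 2680 livers), and Ddn, Myo5a and Cx3cl1, which neurons also express. Ddn (dendrin) had 27 to 52 counts in the 1340 livers and 0 in all 3 of the 2680 livers, and was between 7.06 and 9.79 CPM (median 8.67) in kidney. Myo5a, a myosin, had 20 to 34 and 1 to 5 counts in these livers, and Cx3cl1 (fractalkine) 33 to 52 and 1 to 7.

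Among the 8220 genes at 5 CPM or more in each of the 4 groups, 31 interaction calls remained. Alb, at between 7.46 and 71.7 CPM (median 51.03) in kidney, and Gpx3 are among these 8220 genes, so that the limit also admitted genes that were low in 1 organ. Fitted on their own, these 8220 genes gave 12 calls, 3 more liver-sided and 9 more kidney-sided in the 2680 libraries, a fit added after the data had been seen. The following were named after their values had been seen. Thrsp, which promotes fatty acid synthesis, had a log2 fold change of 5.84 in the 1340 and 2.89 in the 2680 libraries (difference -2.96 ± 0.49, adjusted p = 0.0047), and Acaca, the acetyl-CoA carboxylase of that pathway, 2.05 and 0.92 (-1.14 ± 0.28, adjusted p = 0.042, and 0.21 in the fit of these genes alone). The adipocyte genes moved with both, summing to 10.8 to 46.8 CPM in the 1340 kidneys and 139 to 198 CPM in the 2680 kidneys, and their part was not tested. Noct, a deadenylase with a daily rhythm, went from 1.54 to -0.38 (-1.93 ± 0.35, adjusted p = 0.0044) and Pfkfb3, a regulator of glycolysis, from 0.45 to -1.71 (-2.17 ± 0.36, adjusted p = 0.0017). Zbtb20, a repressor of the alpha-fetoprotein gene, went from -0.34 to -1.78 (-1.46 ± 0.20, adjusted p = 3.5e-04), and Oat, which degrades ornithine, rose in the liver direction from 2.34 to 3.29 (0.94 ± 0.19, adjusted p = 0.0078). Except for Acaca, the genes named here were also called in the fit of these genes alone, at adjusted p between 0.0042 (Zbtb20) and 0.048 (Oat). The cause of these differences was not tested.

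The same comparison in the 14 libraries of NMN-gavaged mice gave 6051 calls of 14356 genes (42.1%), 2265 higher in liver and 3786 higher in kidney. Of the 6327 genes called in the water mice, 5339 were called there as well (84.4% of the first list and 88.2% of the second), all in the same direction.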

How the data were processed

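PolyA RNA of liver and kidney was sequenced, and the authors used STAR for alignment and HTSeq, without strand, for the count of each gene, taking only reads that lay wholly within 1 gene, so overlapping genes (Cubn, Cyp24a1, Serpina3k, Slc22a12 and Gapdh among those named) cannot be told apart from their partners. The deposited files hold raw counts of 54446 genes, 12925839 to 20635269 per water library, and the reads assigned to no gene (the last lines of each file) were left out. Per the methods the genome is one whose name matches no mouse assembly. No gene coordinates are therefore given except those of the promoter windows, which come from RefSeq, build GRCm38.p6. Gene identifiers were matched to GENCODE M21, all but 37. The members and lists were chosen with earlier results of these data known.

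Tests used edgeR 4.0.16 (filterByExpr, TMM, glmQLFit with the robust option, glmQLFTest, Benjamini-Hochberg adjustment over all tested genes) in R 4.3.3, with the schedule as a block, within each schedule, with an organ by schedule interaction, and in the NMN libraries. Recovery was checked on simulated counts. Genes at 4-fold were recovered at 97% over both schedules and 85% for the interaction, with 0 and 6 false calls. The simulation gave both organs the same gene means and changed 200 genes, equally in both directions. It therefore does not test the scaling between organs that differ as widely as these. The 95% interval came from the fit's standard error. A bound takes 3 counts over the group for genes at 0 in an organ. Intervals and bounds cover the spread or the counting of these libraries only. Alternatives were DESeq2 1.42.0, other scalings, filters, thresholds, a replicate block and leaving out libraries. No replicates were duplicates, since counts differed by a chi-square of at least 6.27 per gene.

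Genes were named by a rule: the 8 widest gaps in each direction at 100 CPM or more, up to 3 members of each list and direction, all members of the divided pathways, reference genes and isozyme pairs, the 5 smallest interaction p values in each direction at 5 CPM or more, and the 5 most abundant alike genes. Apoe, Gpx3, Slc34a1, Lrp2, F13b, Apom and others outside it were chosen after their values were seen. The trace sets hold genes with at least 100 CPM in one organ and at most 3 counts in the other in the NMN libraries of the 2680 schedule. The listed genes C5 and Tmlhe were not matched, and results of some genes are not reported here.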

Additional observations from a re-analysis of the deposited data

Results flagged for a closer look

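The organ difference depended on the schedule, at an adjusted p under 0.05 in edgeR's interaction test, for 37 of the genes named above. The difference of the log2 fold changes, 2680 minus 1340, is given for each, and positive values mean a more liver-sided gene in the 2680 libraries. For 15 genes higher in liver it was 6.30 for Ahsg, 7.12 for Mug1, 6.15 for Mup3, 6.02 for Serpina3k, 5.02 for Serpina1e, 4.73 for Uox, 4.55 for Mat1a, 4.04 for Otc, 3.64 for Alb, 3.19 for Hao1, 3.07 for Fabp1, 1.96 for Gulo, 1.77 for Gls2, 1.76 for Slc10a1 and 1.39 for Apoa2. For 15 genes higher in kidney it was -8.79 for Ddn, -4.79 for Slc1a1, -4.13 for Slc22a12, -3.97 for Akr1c21, -3.87 for Slc22a6, -3.80 for Myo5a, -3.35 for Kap, -3.33 for Dao, -3.32 for Slc34a1, -3.09 for Cx3cl1, -2.59 for Miox, -2.51 for Cubn, -2.44 for Kl, -2.09 for Gpx3 and -2.07 for Lrp2. All of these genes but Alb, Apoa2, Kap and Gpx3 had under 10 counts in at least 1 library of the lower organ in the 2680 schedule, so that these values rest on few counts and only their direction can be read. For the other 7, all at 5 CPM or more in each group, it was -2.96 for Thrsp, -2.17 for Pfkfb3, -1.93 for Noct, -1.46 for Zbtb20, -1.14 for Acaca, 1.06 for Aqp1 and 0.94 for Oat. In the fit of the genes at 5 CPM or more alone, Acaca (adjusted p = 0.21) and Aqp1 (adjusted p = 0.083) were not called. With DESeq2 36 of the 37 were called, all but Hao1. The traces of other organs in the 1340 libraries moved with the first and second of these sets, and their part in each gene was not tested.

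Within the 4 libraries of an organ in the 1340 schedule, 17 of 330 sets of values had 1 library far from the other 3 by Dixon's criterion, which chance would give in about 1 set in 20. In the livers, replicate 3 had 596 CPM of Abcc2 (305 to 349 in the others), 1.87 of Emcn (2.27 to 2.33), 24.5 of Gusb (29.4 to 30.2) and 37.7 of Urad (28.9 to 30.1). Replicate 1 had 132 CPM of Serpina6 (258 to 280.2), and replicate 2 had 385 of Slc25a15 (486 to 498) and 5638 of mt-Nd2 (6612 to 6667). In the kidneys, replicate 1 had 60.7 CPM of Epcam (69.4 to 69.9), 37.0 of Psat1 (24.1 to 26.3), 27.5 of Gys1 (30.2 to 30.5) and 153 of Slc22a5 (195 to 203). Replicate 4 had 10.5 CPM of Mup3 (6.86 to 7.41), 11.5 of Nphs1 (16.6 to 17.0) and 2.70 of Uox (0.997 to 1.13). Replicate 2 had 153 CPM of Acaa2 (159.9 to 161) and 5525 of mt-Nd2 (6364 to 6479), and replicate 3 had 22057 of mt-Co1 (17880 to 18564).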

How the results depend on the processing

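The counts of genes over both schedules (2497 higher in liver and 3830 in kidney) stayed within 1.5 times of these values with DESeq2 (2396 and 4002), DESeq2 size factors in edgeR (2378 and 3925), upper quartile scaling (2057 and 4320), no filter on low counts (2804 and 5194), no robust option, no mitochondrial genes, no schedule block, and in the 2680 libraries alone, a choice made after seeing the data. Library totals gave 1199 and 7355 genes over both schedules, 1171 and 7147 in the 1340 libraries and 1237 and 7465 in the 2680 libraries. With at least 10 counts in every library fewer genes were tested, and the counts were 1574 and 1799, with 1933 (1340) and 2062 (2680) in kidney. An adjusted p under 0.05 with no fold limit gave 5257 and 5902, and 4509 (1340) and 4602 (2680) in liver. A fold over 16 gave 610 and 1169, 629 and 1197 (1340), and 643 and 1557 (2680). The genes alike in both organs numbered 5703, and 5726 with either DESeq2 or upper quartile scaling and 3901 with library totals. The interaction (95 more liver-sided and 194 more kidney-sided genes) was 198 and 329 with DESeq2, 13 and 17 with at least 10 counts in every library, 63 and 98 at an adjusted p under 0.01, 3 and 9 when only genes at 5 CPM in every group were fitted, and 292 on the kidney side without the filter on low counts. Other alternatives kept the counts of each schedule and of the interaction within 1.5 times, apart from the replicate block on the kidney side of the interaction (126).

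Whether the numbers of the libraries pair them by mouse was not settled. A correlation over 0.1, the criterion used, was found in 3 of 7 liver and kidney pairs (range 0.0625 to 0.227). Each library nevertheless correlated best with its own number in 7 of 7 cases. The main fits and the permutation tests took no pairing into account. With the replicate block the counts were 2432 and 3795 over both schedules, 2272 and 3599 (1340), 2370 and 3872 (2680), and 88 and 126 for the interaction, where 31 of the 37 named schedule differences were called and Acaca, Cubn, Gls2, Kl, Lrp2 and Otc were not. Leaving out each library in turn gave 2463 to 2570 genes in liver and 3790 to 4102 in kidney over both schedules, 2306 to 2455 and 3474 to 3892 (1340), 2341 to 2641 and 3716 to 4107 (2680), and 72 to 111 and 143 to 231 for the interaction. Of 196 named genes, none reversed where it was tested, which was so for 118 with at least 10 counts in every library, 193 without mitochondrial genes, 195 in the 2680 libraries alone and all under the others. Library totals took the call from 14 and gave one to 18, upper quartile scaling from 3 and to 3, and the 2680 libraries alone from 4 (Acaca, Krt19, Pck2 and Tfrc) and to 4. A call needed counts in the lower organ to give its size: where these were under 10, only the direction and a bound can be read.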

Other observations

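Lists of lymphocytes, muscle, adrenal cortex and pancreas gave few counts in both organs. Genes of lymphocytes summed to 8.81 ± 1.21 CPM in liver and 8.05 ± 1.81 CPM in kidney (mean ± SD, n = 7 each), and of 6 genes only 2 could be tested, with Ptprc, the common leukocyte antigen, the most abundant in both. Genes of skeletal and heart muscle, a list added after the libraries had been examined, summed to 3.24 ± 4.47 CPM in liver and 1.20 ± 0.65 CPM in kidney, and 1 of 10 could be tested and was not called. A single library carried much of the liver mean, with 13.06 CPM in replicate 2 of the 1340 livers and 0.363 to 3.93 CPM in the other livers. Genes of the adrenal cortex, which lies on the kidney, summed to 3.40 ± 0.87 CPM in kidney and 2.05 ± 0.67 CPM in liver, and genes of the exocrine pancreas to 0.0310 ± 0.0408 CPM in kidney and 0.686 ± 0.785 CPM in liver. The neuron and glia genes summed to 218 ± 55.8 CPM in liver and 36.5 ± 16.4 CPM in kidney, with Slc1a2, a glutamate transporter that liver also expresses, the most abundant in liver.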
